A study of Mus musculus with 2 samples.

Results

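The 40 genes described here build the centrosome, the mitotic spindle and the apical cortex of dividing neural progenitors, and include 10 genes of inherited primary microcephaly. They were chosen by name, with earlier results of these data known, and all 40 were found among the 43346 gene identifiers of the tables. RNA was sequenced from the midbrain of B6NCrl mouse embryos at embryonic day 10.5, with no treatment or mutation in the labels. The labels give 1 group with 2 biological replicates. Replicate 1 pooled 69 embryos of both sexes and replicate 2 pooled 51. Libraries were made from 10 ng of RNA longer than 200 nt. With 1 group no condition can be compared, so levels are compared between genes and between the libraries. Levels are in TPM, each gene's share of a library's transcripts after correction for length, given as replicate 1 and then replicate 2, or as mean ± SD (n = 2).

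A centrosome is a pair of centrioles in a cloud of pericentriolar material from which microtubules grow. It is copied once per cell cycle, one centrosome goes to each spindle pole, and the older centriole also seeds the primary cilium at the apical surface. In the neural tube, progenitors stretch across the wall and divide at that surface. The angle of the spindle and the hold of the apical junctions bear on what each daughter inherits. Loss of many of these genes slows or misdirects progenitor divisions and leaves a small brain, so the set is studied mainly as the machinery of progenitor number.

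Summed expected counts were 47128426 for replicate 1 and 52189568 for replicate 2. The 40 genes took 167899 and 185451 of these counts, or 0.369% and 0.367% of the counts on genes. As a check of the labelled tissue, Otx2, a homeobox gene of forebrain and midbrain, stood at 138.04 and 122.72 TPM. Of the 4 midbrain markers 3 were detected, at 1 TPM or more in both libraries; En2 was under that level at 0.92 and 0.71 TPM. Other cell types were present: red cell genes summed to 11312 and 13232 TPM, mesenchyme genes to 699.6 and 473.6 TPM, endothelial genes to 75.7 and 71.0 TPM and macrophage genes to 53.7 and 37.8 TPM. In such bulk tissue, fewer cells of a type and less RNA per cell cannot be told apart.

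Promoters of 4 of these genes are shown because they hold a word known from promoters of cell cycle genes. The CHR (cell cycle genes homology region) is bound by the complexes that hold G2 and mitosis genes down in resting cells, and it often lies near a CCAAT box. The 4 shown are those with the highest TPM among genes with a CHR in the 250 bases before the RefSeq start (GRCm38.p6). Each is written 5′ to 3′ on the gene's own strand, with CHR and CCAAT matches on either strand in capitals. They lie at chr2:29889567-29889816 on the plus strand (Odf2, one of its 4 RefSeq promoters), chr3:108722300-108722549 on the minus strand (Gpsm2), chr3:116594708-116594957 on the plus strand (Sass6) and chr2:125625114-125625363 on the minus strand (Cep152).
Odf2: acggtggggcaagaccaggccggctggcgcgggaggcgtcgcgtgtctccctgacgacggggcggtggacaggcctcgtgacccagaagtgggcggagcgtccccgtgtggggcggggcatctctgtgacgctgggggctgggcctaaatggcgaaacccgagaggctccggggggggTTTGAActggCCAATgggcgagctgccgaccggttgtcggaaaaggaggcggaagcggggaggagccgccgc
Gpsm2: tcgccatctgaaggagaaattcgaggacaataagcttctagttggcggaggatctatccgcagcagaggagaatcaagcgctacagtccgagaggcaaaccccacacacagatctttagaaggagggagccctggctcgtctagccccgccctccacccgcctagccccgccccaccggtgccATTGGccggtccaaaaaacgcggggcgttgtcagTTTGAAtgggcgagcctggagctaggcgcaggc
Sass6: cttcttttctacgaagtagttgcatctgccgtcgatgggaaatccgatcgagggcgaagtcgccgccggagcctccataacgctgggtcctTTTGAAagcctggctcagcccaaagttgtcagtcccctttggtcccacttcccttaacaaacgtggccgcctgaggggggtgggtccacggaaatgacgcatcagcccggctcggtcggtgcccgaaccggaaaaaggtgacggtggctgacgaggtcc
Cep152: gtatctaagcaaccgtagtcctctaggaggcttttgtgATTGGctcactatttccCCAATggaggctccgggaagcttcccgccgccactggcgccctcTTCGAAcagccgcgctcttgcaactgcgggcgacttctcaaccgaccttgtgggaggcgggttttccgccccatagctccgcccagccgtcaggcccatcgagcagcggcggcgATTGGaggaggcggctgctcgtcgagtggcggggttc

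The CHR began 72 bases before the start in Odf2, 33 in Gpsm2, 159 in Sass6 and 151 in Cep152. RefSeq promoters were at hand for 32 of the 40 genes and were searched over 300 bases, from 250 before the start to 50 after it, on both strands. The CHR, written TTTGAA or TTCGAA, was in 8 of the 32 (25%): Odf2, Gpsm2, Sass6, Cdk5rap2, Aspm, Cep152, Cep164 and Nin. It was in 21.7% of 27025 genes of the same table and in 16.2% of 9805 detected protein-coding genes. CCAAT was in 17 of the 32 (53.1%), beside 41.1% and 43.7%. An E2F site, written TTTCCCGC or TTTGGCGC or TTTCGCGC or TTTGCCGC, was in Cep63 and Wdr62 alone (6.25%), beside 2.6% and 4.8%. CHR and CCAAT occurred together in 6 genes (Odf2, Gpsm2, Aspm, Cep152, Cep164 and Nin), and 12 genes had none of the 3 motifs. Such short words also match by their letters alone, and these shares were not tested. The 8 genes with a CHR had a median of 17.1 TPM and the 24 without it 25.8 TPM.

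**Figure D1:**
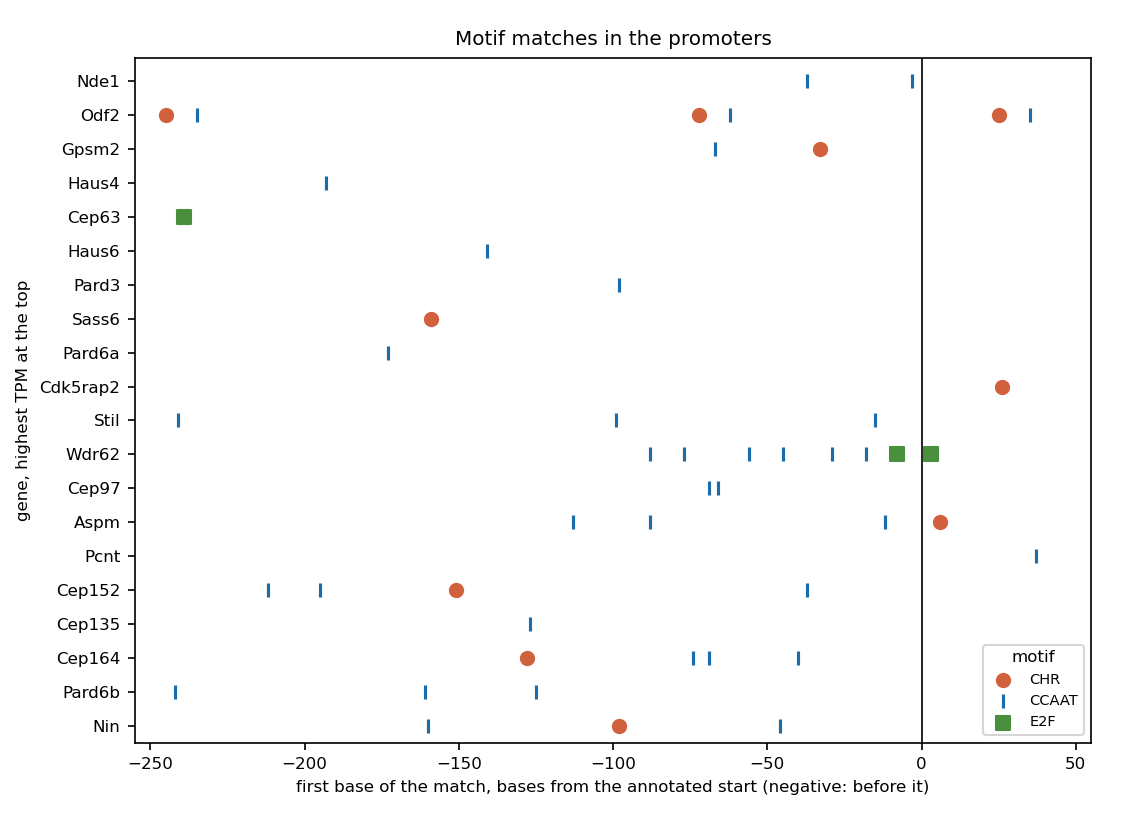
Motif matches in the promoters of the 20 genes with at least 1 match, ordered by TPM. The x axis is the distance in bases from the annotated start (negative before it), and each mark is the first base of a CHR, CCAAT or E2F match; several starts of Odf2 and Wdr62 were searched, so 1 stretch can appear at more than 1 distance. CHR matches lie on both sides of the start, from Odf2 to Nin.

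All 40 genes were detected in both libraries, where 12477 of 21474 protein-coding genes (58.1%) were. In 33 the level reached 10 TPM in both libraries, in 9 it reached 50 TPM and in 4 it reached 100 TPM. Their median was 23.3 and 22.2 TPM (22.7 ± 0.79), close to the 20.7 TPM of detected protein-coding genes. The set was wider than that median conveys: from 278.3 TPM for Tacc3 to 1.495 TPM for Insc, a 186-fold range. The 4 highest genes, Tacc3, Nde1, Llgl1 and Tpx2, held 39.98% and 41.88% of the summed TPM of all 40. The order was nearly the same in both libraries, with a Spearman rho of 0.993 across the 40 genes. Between neighbours in that order, the ranges of the 2 libraries overlapped in 18 of 39 pairs, so near ranks are not separable. The widest gaps were at the ends, where Nin was 3.11-fold above Insc and Tacc3 was 1.65-fold above Nde1. The range and the gap above Insc rest on its TPM, which a second estimate given below puts higher.

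**Figure D2:**
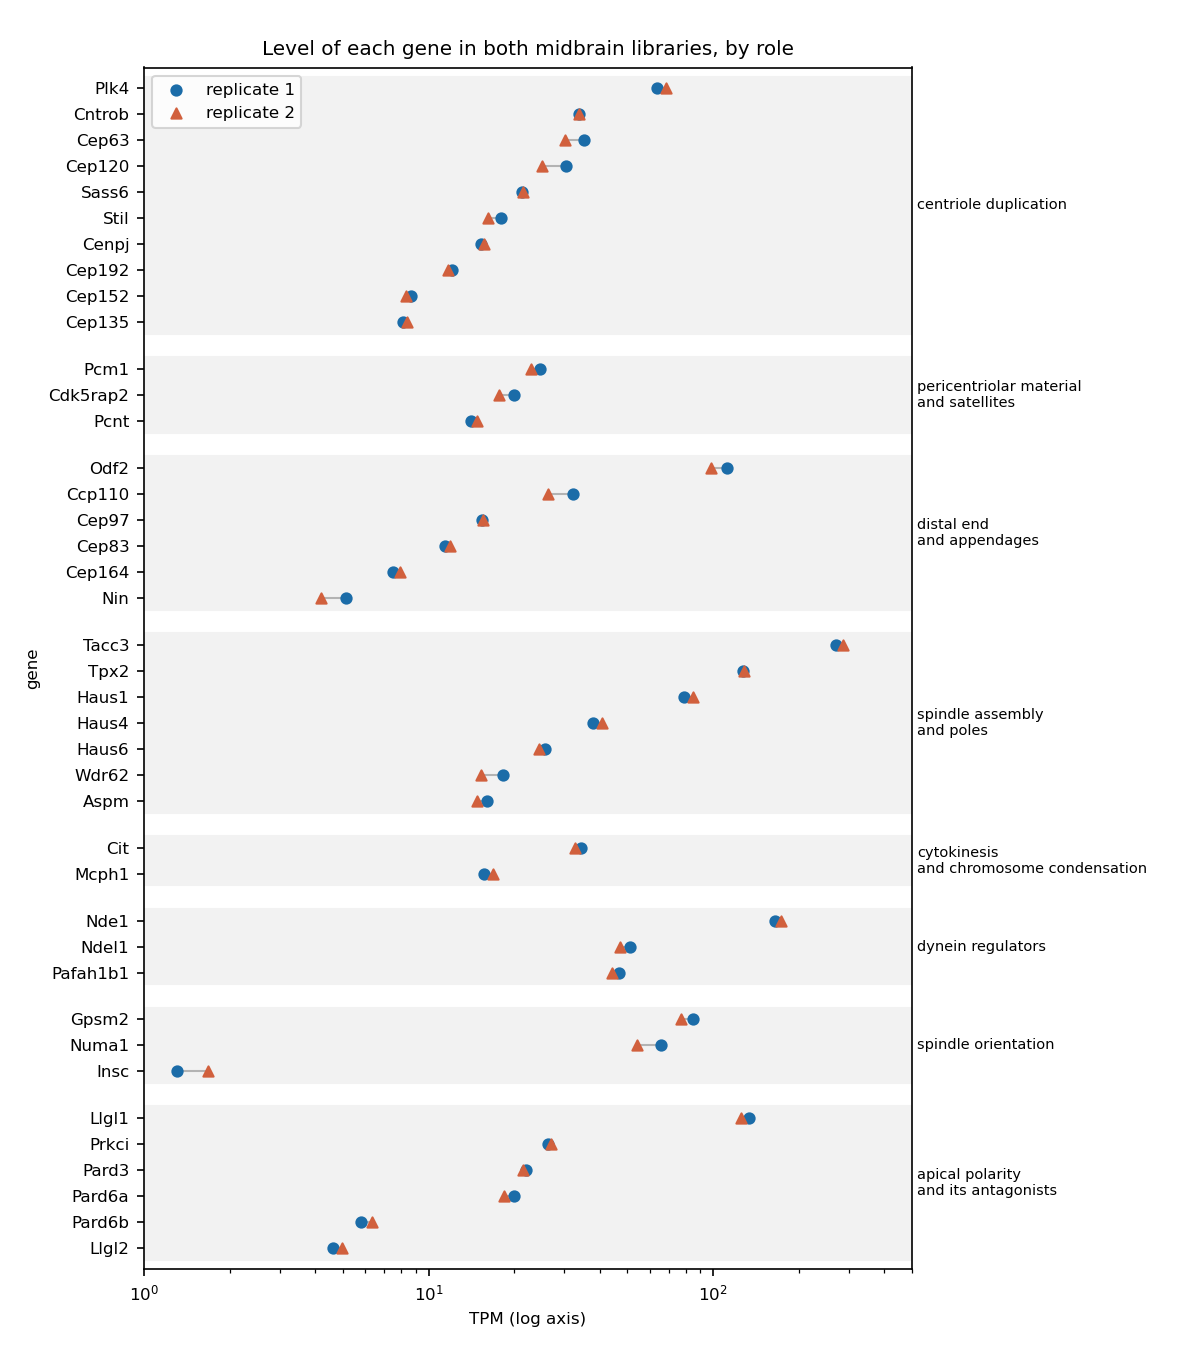
Level of each of the 40 genes in TPM (log x axis), grouped by role, with a circle for replicate 1 and a triangle for replicate 2. The symbols of most genes touch, so genes differ far more than libraries do; Tacc3 lies farthest right at 269.41 and 287.23 TPM, while Insc lies alone at the left at 1.31 and 1.68 TPM.

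Centriole duplication was led by its kinase. Plk4, which starts the growth of a new centriole, stood at 63.73 and 68.49 TPM (chromosome 3, 40800019 to 40816883, GRCm38). Its partner Stil, which Plk4 phosphorylates, was at 18 and 16.12 TPM. Sass6, the hub protein of the cartwheel that Stil brings in, was at 21.22 and 21.41 TPM. Plk4 RNA was thus 3.90 ± 0.50 times that of Stil and 3.10 ± 0.14 times that of Sass6. The proteins that dock Plk4 on the parent centriole were lower and unequal. Cep63 was at 35.17 and 30.07 TPM, its binding partner Cep152 at 8.67 and 8.3 TPM, and Cep192, which also builds pericentriolar material, at 12.11 and 11.68 TPM. Cep63 was 3.84 ± 0.31 times Cep152 although both proteins work in 1 complex.

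Of the genes for centriole growth, Cep120 was at 30.32 and 24.96 TPM. Cenpj, which adds tubulin to the centriole wall, was at 15.26 and 15.62 TPM, and Cep135, which ties the cartwheel to that wall, was lowest of the group at 8.15 and 8.42 TPM. Cep135 and Cep152, whose library ranges overlapped, were the bottom of the duplication group. Cntrob, which marks the daughter centriole, was at 33.74 and 33.81 TPM. The median of the 10 duplication genes was 19.61 and 18.77 TPM.

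The pericentriolar scaffolds lay close together. Pcm1, the scaffold of the satellites around the centrosome, was at 24.56 and 22.92 TPM. Cdk5rap2, which anchors gamma-tubulin rings, was at 19.96 and 17.64 TPM, and Pcnt, the large coiled-coil scaffold, at 14.15 and 14.76 TPM. None of the 3 ranges overlapped in these values, although the highest was only 1.64 ± 0.13 times the lowest. Without annotated transcripts under 1000 nt, Cdk5rap2 was at 14.57 and 13.5 TPM, and its range then overlapped that of Pcnt.

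Genes of the distal end and appendages, which decide whether a centriole forms a cilium, had the lowest median of the 8 roles, 13.42 and 13.68 TPM. They also held one of the highest genes: Odf2, of the subdistal appendages, at 111.55 and 98.39 TPM (chromosome 2, 29889221 to 29931746). Nin, another subdistal protein, kept by progenitors on their older centrosome, was at 5.13 and 4.18 TPM, so that Odf2 was 22.6 ± 1.3 times Nin. The caps that hold back the cilium differed less. Ccp110 was at 32.16 and 26.39 TPM and its partner Cep97 at 15.4 and 15.51 TPM, a ratio of 1.90 ± 0.27. The distal appendage genes, which dock the centriole at the membrane, were low: Cep83 at 11.43 and 11.85 TPM and Cep164 at 7.53 and 7.91 TPM.

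Spindle genes included the top of the whole set. Tacc3, which cross-links and steadies spindle microtubules, stood at 269.41 and 287.23 TPM (chromosome 5, 33658128 to 33678995). The deposited interval of its TPM ran from 257.9 to 271.3 and from 276.3 to 289.0. Tpx2, which activates Aurora A and seeds microtubules near chromosomes, was at 127.22 and 128.25 TPM. Both were far above the spindle pole genes of microcephaly. Aspm, the gene most often mutated in that disorder, was at 15.99 and 14.81 TPM (chromosome 1, 139454772 to 139494091), and Wdr62 at 18.23 and 15.3 TPM. Tacc3 was 18.1 ± 1.8 times Aspm and Tpx2 was 8.31 ± 0.50 times Aspm.

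The augmin subunits, which branch new microtubules from the sides of old ones, were unequal though they form 1 complex. Haus1 was at 79.09 and 84.93 TPM, Haus4 at 37.78 and 40.75 TPM and Haus6 at 25.65 and 24.49 TPM. Haus1 was 2.09 ± 0.0066 times Haus4, and Haus4 1.57 ± 0.14 times Haus6. The 5 subunits outside the set lay within the span of these 3, from Haus2 at 34.91 and 34.71 TPM to Haus7 at 71.12 and 72.7 TPM. The 7 spindle genes had a median of 37.78 and 40.75 TPM. On the log2(TPM + 1) scale that median exceeded the duplication median by 0.92 and 1.09, a mean of 1.00 ± 0.12.

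Genes that act at the end of mitosis or before it were near the middle. Cit, the citron kinase of the midbody, was at 34.36 and 32.78 TPM, and Mcph1, which keeps chromosomes from condensing early, at 15.6 and 16.87 TPM. Cit was 2.07 ± 0.18 times Mcph1.

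The 3 dynein regulators had a median of 51.0 and 46.97 TPM. Nde1, which works with dynein at the centrosome and whose loss causes microcephaly, was next after Tacc3 at 164.56 and 173.05 TPM (chromosome 16, 14163275 to 14192928). Its paralog Ndel1 was at 51.0 and 46.97 TPM. Pafah1b1, the lissencephaly gene whose product LIS1 binds both, was at 46.56 and 44.28 TPM. Nde1 exceeded Ndel1 by 3.46 ± 0.32 times in this tissue.

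The spindle orientation genes split most sharply. Gpsm2 (LGN), which ties G protein alpha subunits at the cortex to the spindle, was at 84.88 and 77.16 TPM (chromosome 3, 108678638 to 108722309). Numa1, which binds Gpsm2 and pulls on astral microtubules through dynein, was at 65.58 and 53.97 TPM (chromosome 7, 101934111 to 102014964). Insc, which can tilt divisions by bringing Gpsm2 to the apical Par complex, was at 1.31 and 1.68 TPM (chromosome 7, 114743694 to 114850383). Only 61 and 99 counts lay behind the Insc values, and their deposited intervals ran from 1.30 to 2.60 and from 1.65 to 3.02 TPM. These intervals belong to a second estimate, the posterior mean, which was 1.93 and 2.31 TPM for Insc. The contrast within the group was wide in both libraries: by TPM, Gpsm2 was 55.4 ± 13 times Insc and Numa1 41.1 ± 13 times. By posterior mean Gpsm2 was at 83.89 and 76.45 TPM and Numa1 at 64.34 and 53.04 TPM, so both ratios were lower.

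Apical polarity showed a dominant paralog in the Pard6 and Llgl pairs. Of the Par complex that marks the apical cortex, the kinase Prkci was at 26.19 and 26.92 TPM, the scaffold Pard3 at 22.05 and 21.46 TPM, the adaptor Pard6a at 19.98 and 18.42 TPM and its paralog Pard6b at 5.81 and 6.35 TPM. Prkci, Pard3 and Pard6a were within a narrow band, and Pard6a was 3.17 ± 0.38 times Pard6b. Paralogs outside the set were not all so far apart. Prkcz, the paralog of Prkci, was at 17.56 and 12.41 TPM, and Pard3b, the paralog of Pard3, at 8.16 and 6.92 TPM. Llgl1, which opposes that complex from the basolateral side, was the highest polarity gene at 133.63 and 125.19 TPM (chromosome 11, 60699723 to 60714186). Llgl2, its paralog, was at 4.62 and 4.96 TPM, so Llgl1 was 27.1 ± 2.6 times Llgl2. Both Llgl2 values lie below their own deposited intervals, 4.64 to 7.26 and 5.07 to 7.72 TPM, whose posterior means were 5.92 and 6.34 TPM. Both Llgl1 values lie slightly above theirs, with posterior means of 131.09 and 123.12 TPM, so by posterior mean the ratio was lower. Without annotated transcripts under 1000 nt, Llgl2 was below its TPM here and the ratio was 47.5 and 35.3 (41.4 ± 8.7). Llgl1 was thus higher in each case but by an uncertain factor.

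The 10 genes that name primary microcephaly loci (Mcph1, Wdr62, Cdk5rap2, Aspm, Cenpj, Stil, Cep135, Cep152, Sass6 and Cit) were lower than the other 30. They were grouped from knowledge of the disease after their values had been seen, so the difference is a description. Their median was 17.0 and 15.9 TPM (16.5 ± 0.80), from 8.29 TPM for Cep135 to 33.6 TPM for Cit. The other 30 had a median of 31.2 and 26.7 TPM (28.5 ± 3.2), and 13 of them were above every one of the 10. The other 30 are not free of microcephaly genes, since they include Nde1, described above. Outside the set, 18 further microcephaly genes, not sorted by whether they name such loci, had a median of 32.4 and 28.9 TPM. The lower level is therefore described for these 10 genes only, not for microcephaly genes in general. The 10 also have longer RNAs, with a median of 5306 nt against 3428 nt. Across the 40 genes TPM fell with length (Spearman rho -0.39), as it did over detected protein-coding genes (rho -0.31), which share the libraries and the length correction. The 14 genes over 5000 nt had a median of 16.2 TPM and the 26 others 30.1 TPM. The part of length in the lower level of the 10 genes was not tested.

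Transcript tables show which forms carry these levels. The 40 genes have 229 annotated transcripts, and 12 genes have 1 each. In 38 genes the transcript with the highest deposited isoform percent was the same in both libraries, and in 30 of them it held at least 50% of the gene in both. Numa1 was divided between Numa1-201, of 2094 residues, with 70.85% and 68.62%, and Numa1-202, of 741 residues, with 29.15% and 31.38%. Cit was led by Cit-201, of 2055 residues, with 59.69% and 62.12%, and the retained intron Cit-215 held 21.91% and 20.53%. Cit and Numa1 were picked out after their values had been seen. In Tpx2 the leading Tpx2-202 held only 34.36% and 31.78%, but this and the next 3 transcripts all encode 745 residues.

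In 2 genes the lead changed. Pard6a-201, of 346 residues, led in replicate 1 with 54.64% and fell just behind Pard6a-202, of 330 residues, with 49.44% against 50.56% in replicate 2. Insc-201 held 56.89% in replicate 1 and 0% in replicate 2, where Insc-208 held 66.07% after 0% in replicate 1. Both Insc forms encode 532 residues, and the change rests on fewer than 100 counts a library. Leading forms under 50% in at least 1 library were found, besides Tpx2, in Odf2 (Odf2-204, 43.91% and 55.02%), Pafah1b1 (Pafah1b1-201, 47.22% and 47.81%), Ccp110 (Ccp110-202, 48.14% and 46.32%), Pard3 (Pard3-209, 44.77% and 47.54%), Cep97 (Cep97-201, 47.41% and 46.34%), Cdk5rap2 and Wdr62.

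The last 2 genes have much of their TPM in forms typed as non-coding or as targets of nonsense-mediated decay. Cdk5rap2-201, typed as a target of nonsense-mediated decay with an open frame of 76 residues, held 44.49% and 51.49%, and the 1822-residue Cdk5rap2-206 held 24.45% and 23.5%. Wdr62-201, of 1524 residues, held 32.67% and 31.83%, and non-coding forms and decay targets together 56.67% and 53.34%. The only Sass6 transcript of the tables, Sass6-201, is typed as a decay target in the annotation used for names. That is a later release than that of the files, and the type of Cdk5rap2-201 comes from it too. In all, forms typed as non-coding or as decay targets held over 20% in both libraries in 7 genes: Odf2, Cit, Sass6, Cdk5rap2, Wdr62, Llgl2 and Insc. Transcripts missing from the annotation used for names have no type and were not counted among these forms. The largest of these in Plk4 held 18.73% and 20.03% of the gene, and the next 12.16% and 13.0%.

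**Figure D3:**
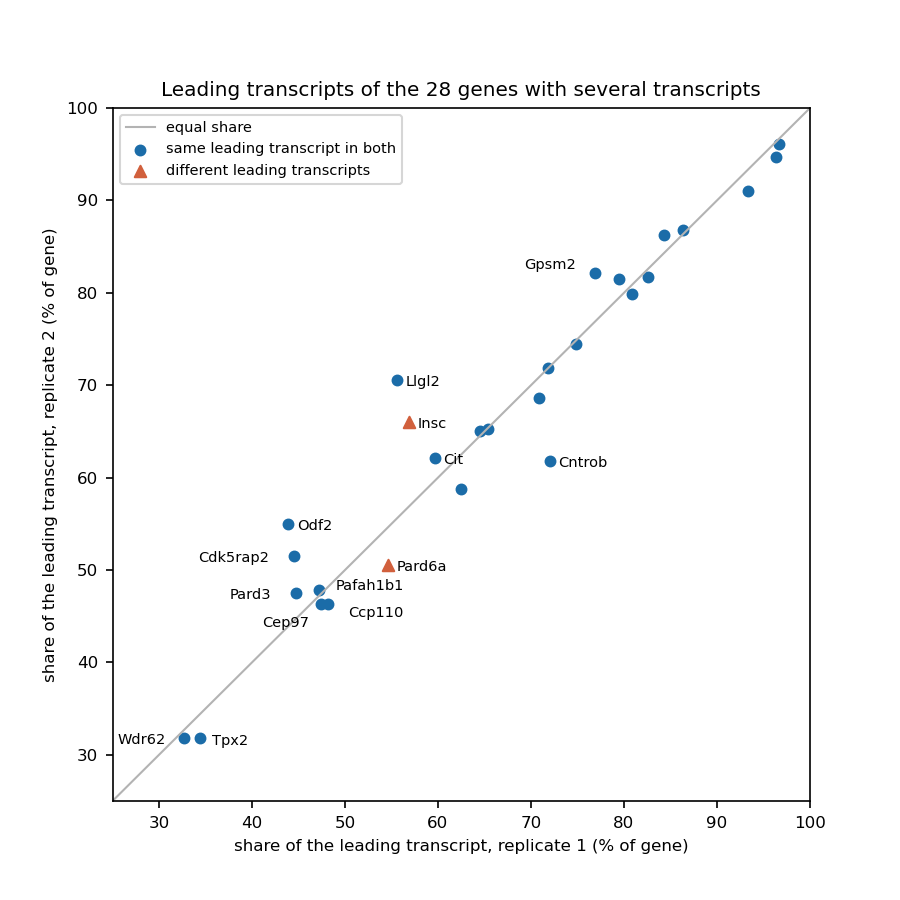
Share of the leading transcript of each of the 28 genes with more than 1 transcript, in percent of the gene, for replicate 1 (x axis) and replicate 2 (y axis). Points near the line have equal shares; triangles mark Pard6a and Insc, whose leading transcript differed, and Wdr62 and Tpx2 lie lowest.

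Short annotated transcripts raise some of these gene levels, since TPM divides counts by length. Pafah1b1-204, of 525 nt and 97 residues, held 41.38% and 41.84% of the Pafah1b1 TPM but 4.81% and 4.90% of its counts. Without transcripts under 1000 nt, Pafah1b1 was at 27.3 and 25.74 TPM, Odf2 at 78.18 and 74.85 TPM, Wdr62 at 11.3 and 11.11 TPM and Llgl2 at 2.77 and 3.5 TPM. Of the ratios between genes printed here, only that of Llgl1 to Llgl2 moved by over 1.5 times. Others moved by less but past their printed SD, such as Odf2 to Nin (16.6 ± 1.9) and Ccp110 to Cep97 (2.53 ± 0.35). Ndel1, close to Pafah1b1 above, was then 1.85 ± 0.031 times it. Insc was then at 0.95 and 1.31 TPM, and 39 of the 40 genes were detected. In 8 genes such transcripts held over 20% of the TPM in both libraries, from 22.5% to 41.9%, with 2.39% to 9.28% of the counts. The median of the 40 genes was then 22.9 and 21.3 TPM, and the spindle median exceeded the duplication median by 0.94 and 1.12 on the log2(TPM + 1) scale. This count was chosen after seeing the data.

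The 2 libraries were compared gene by gene with a two-sided exact binomial test on scaled counts, which compares these 2 libraries and covers counting error only. Genes were called at 2-fold or more with an adjusted p below 0.05. None of the 40 genes was called in either direction, where 2.32% of 14768 genes tested were (1.66% higher in replicate 1 and 0.664% higher in replicate 2). At that background fewer than 1 call would fall among 40 genes, so the count of 0 says little of the set. Of the 40, 26 had an unadjusted p below 0.05. The share of all genes at that level was not counted, but 53% passed even after adjustment, so this count says little of the set either. Library ratios of the 40 genes ran from -0.23 (Nin) to 0.58 (Insc) on the log2 scale, replicate 2 over replicate 1. Their median size regardless of sign was 0.12, against 0.16 over all genes tested and 0.13 over the 8886 genes at 10 TPM or more.

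With an adjusted p below 0.05 and no minimum size, 24 of the 40 genes passed, beside 53% of all genes tested. Of these, 17 genes were higher in replicate 2 and 7 in replicate 1. That is 42.5% and 17.5% of the set, beside a background of 26.8% and 26.2%. The split depended on the scaling. With DESeq2 size factors it was 19 and 7 (background 28.8% and 24.2%), and on the TPM scale 6 and 16 (background 16.8% and 37.7%), where the median log2 ratio of all genes was -0.07 in place of 0.0060. A direction for the set as a whole is therefore not given.

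Some single genes kept their direction, and an adjusted p below 0.05, under all 3 scalings. With TMM alone 53% of all genes tested passed. The share of all genes that passed under all 3 was not counted, so these are single genes and no trait of the set. Tacc3, Nde1, Haus1, Plk4, Haus4 and Mcph1 were higher in replicate 2. Tacc3 differed by 0.15 on the log2 scale of scaled counts (adjusted p = 1.48e-20, exact binomial test), Plk4 by 0.21 (adjusted p = 1.21e-14) and Mcph1 by 0.23 (adjusted p = 1.18e-06). Numa1, Cep63, Ccp110, Cep120, Stil and Nin were higher in replicate 1. Numa1 differed by -0.22 (adjusted p = 9.54e-29), Ccp110 by -0.23 (adjusted p = 1.03e-13) and Nin by -0.23 (adjusted p = 0.000229). Of these 12 genes, those of centriole duplication lay on both sides: Plk4 and Stil, which act together on the new centriole, were opposite. Those of spindle assembly, Tacc3, Haus1 and Haus4, were all higher in replicate 2. Numa1, of spindle orientation, was higher in replicate 1. Insc, the gene with the widest ratio, had a counting interval from 0.11 to 1.07 (adjusted p = 0.0296).

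**Figure D4:**
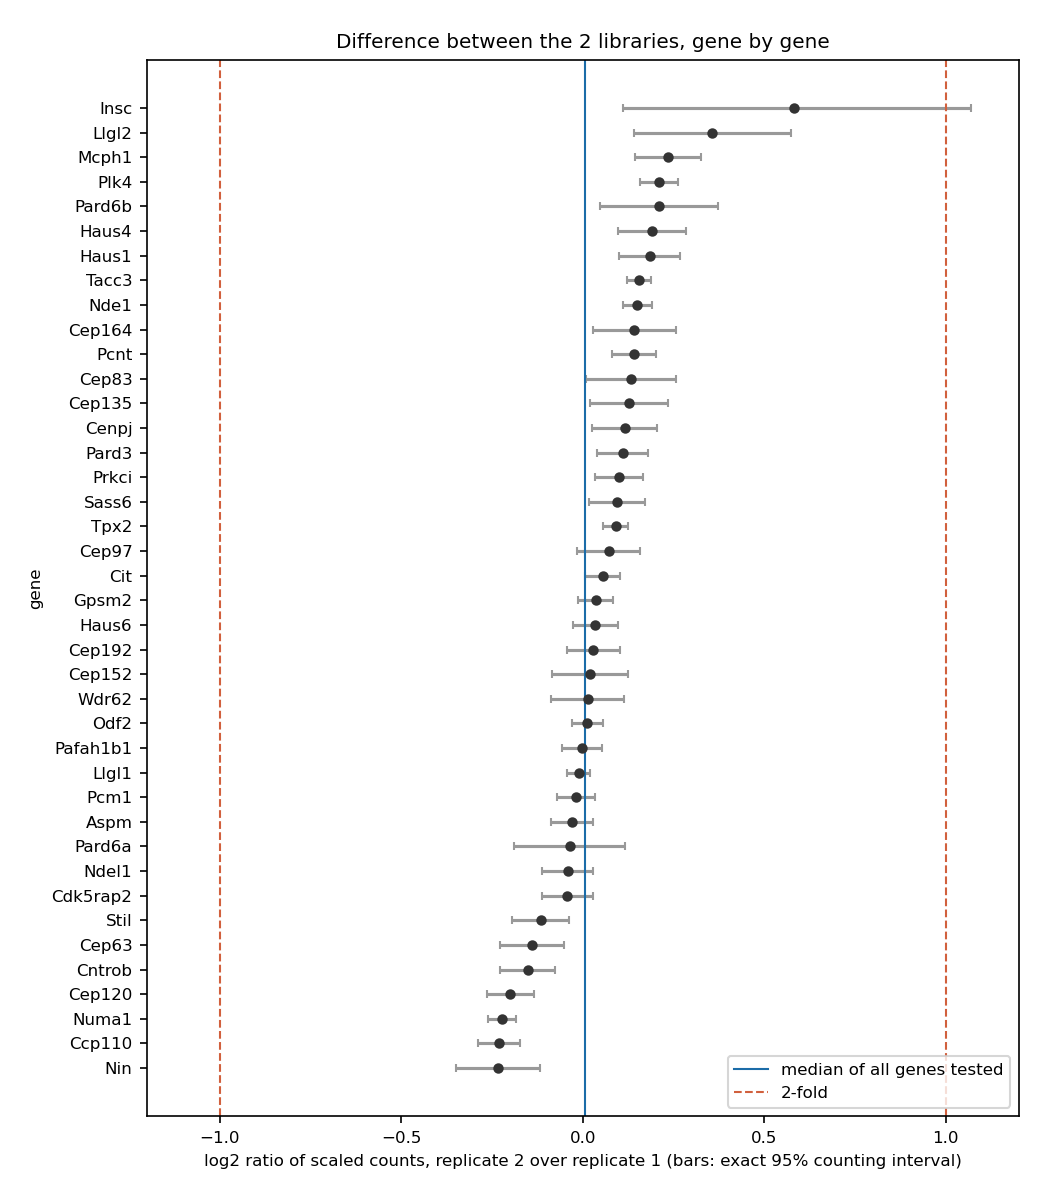
Log2 ratio of scaled counts, replicate 2 over replicate 1, for each of the 40 genes, with bars for the exact 95% counting interval. All points lie inside the dashed 2-fold lines, from Nin at -0.23 to Insc at 0.58, and the solid line is the median of all genes tested.

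Markers of other cell types differed between the libraries too, which in bulk RNA is no measure of cell numbers. All 10 neuron genes passed with no minimum size and were higher in replicate 1 under all 3 scalings (background 26.2% with TMM and 37.7% on the TPM scale), with a summed level of 1532 and 998.5 TPM and a median log2 ratio of -0.56. Dcx, a microtubule protein of young neurons, was past 2-fold at 44.54 and 19.6 TPM, and Tubb3, Gap43 and Stmn2 were the highest of the list, Tubb3 at 562.42 and 363.9 TPM. Of 20 cell cycle genes, 18 were higher in replicate 2 and 0 in replicate 1 with TMM and no minimum size, where 26.8% and 26.2% of all genes were, with a median log2 ratio of 0.21. On the TPM scale 18 were higher in replicate 2 and 1 in replicate 1 (background 16.8% and 37.7%), with a median of 0.13. The cell cycle list had none past 2-fold. The neural progenitor genes, led by Vim, Hes5 and Fabp7, were higher in replicate 1 in 5 of 10 and in replicate 2 in 2 with TMM (6 and 1 on the TPM scale), and summed to 2787 and 2305 TPM. Mesenchyme and macrophage sums were higher in replicate 1 and red cell sums in replicate 2. The part of these cell types in the differences of Tacc3, Plk4, Numa1 and the other genes above was not tested.

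Other genes of the same machinery were read from a list of 88, all matched and all detected, with a median of 35.2 TPM. None was called at 2-fold. With no minimum size and TMM scaling, 34 were higher in replicate 2 (38.6%) and 21 in replicate 1 (23.9%), beside 26.8% and 26.2% of all genes tested. On the TPM scale the split turned over to 19 and 34 (21.6% and 38.6%, beside 16.8% and 37.7%), so no direction is given for these genes either. The highest were Ran, the GTPase that guides spindle assembly around chromosomes (814.4 and 926.21 TPM), Gnai2 (554.62 and 534.09 TPM), Cdc42 (530.21 and 514.61 TPM), the condensin subunit Ncapd2 (200.36 and 210.52 TPM) and the mitotic kinases Plk1 (186.3 and 209.49 TPM) and Aurka (165.75 and 187.57 TPM). Gnai2 is one of the G protein alpha subunits that hold Gpsm2 at the cortex, and Cdc42 switches on the Par complex. The lowest were Tubg2 (3.34 and 1.77 TPM), Cep290 (2.75 and 2.49 TPM), Ttbk2 (4.2 and 3.37 TPM) and Rttn (4.05 and 4.22 TPM), of which Cep290 and Ttbk2 serve the cilium. By role, spindle assembly genes had a median of 77.6 TPM, gamma-tubulin ring genes 48.3 TPM, other centriole genes 25.8 TPM, appendage genes 18.2 TPM and satellite genes 13.7 TPM. The 20 cell cycle genes, led by Rrm2, Cdk1 and Ccnb1, had a median of 243.7 TPM, a level that only Tacc3 of the 40 genes passed.

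**Figure D5:**
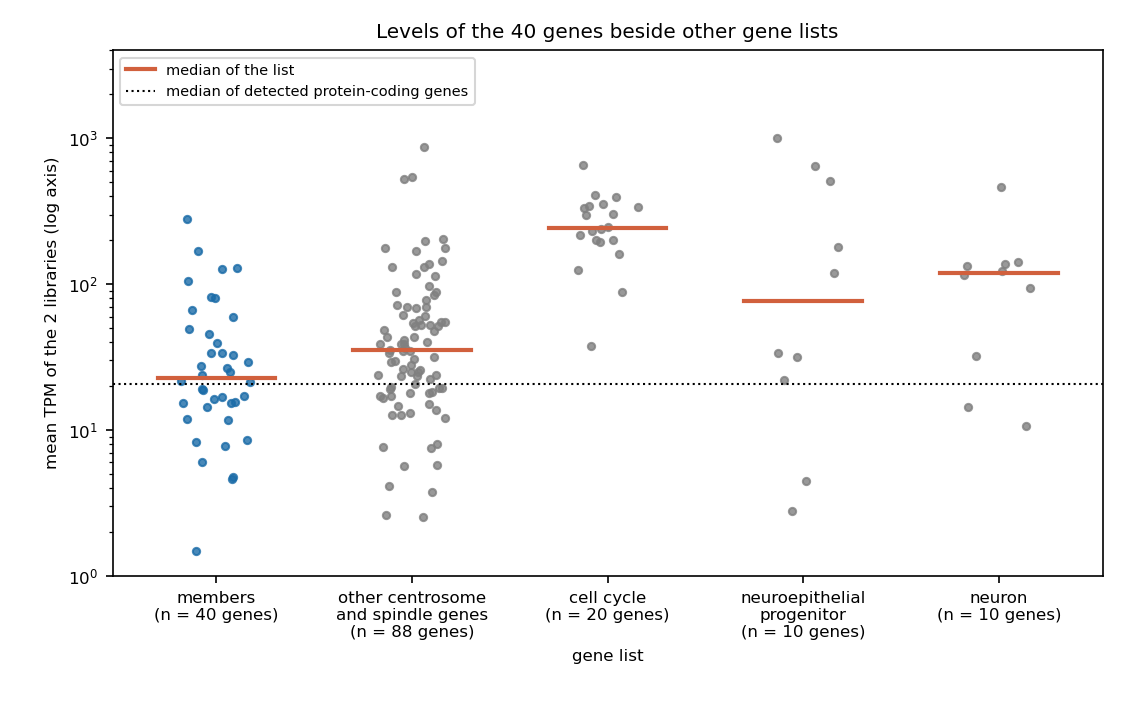
Mean TPM of the 2 libraries (log y axis) for the 40 genes and 4 other lists, 1 point a gene, with a bar at each list's median and a dotted line at the median of detected protein-coding genes. The 40 genes spread around a median of 22.7 TPM, with other centrosome and spindle genes at 35.2 TPM and cell cycle genes at 243.7 TPM.

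Reads could be shared for some of these genes. Expected counts were not whole in 7 of them (Gpsm2, Plk4, Cep63, Sass6, Cdk5rap2, Wdr62 and Mcph1), so reads were divided with other genes. Of these, Gpsm2 overlaps exons of Clcc1 on the other strand over 203 nt, and Cep63 those of Anapc13 over 239 nt. Exons of Tacc3 overlap Tmem129 on the other strand over 289 nt (8.14% of Tacc3 exons). Those of Haus1 overlap Atp5a1 over 129 nt, a gene at 772.1 and 765.55 TPM. Counts of Tacc3 and Haus1 were whole, so no division of reads with these partners shows in them. Sass6 exons overlap the antisense gene Gm42893 over 24.5% of their length. Whether the libraries kept strand is not given in the sources used here, so the part of such partners in the counts is not known.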

How the data were processed

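Total RNA-seq libraries of 2 embryo pools had a gene and a transcript table each. Per the file headers, they are on mm10 with GENCODE M4; aligner and quantifier: not given in the sources used here. The labels link a manual for a kit that primes on poly(A) tails, so RNA capture and strand are unknown.

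The deposited expected counts are estimates that divide shared reads. The deposited TPM values divide counts by effective length (length less 99 nt) and scale each library to a fixed total. The deposited FPKM values were tried in their place. The bounds the authors deposited for TPM are a signal in TPM units, at a level the headers do not give. The deposited isoform percent is a transcript's share of its gene's TPM. Spike-in and tRNA rows (3.39% and 3.28% of counts) stayed out of library sizes and tests.

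Names and positions came from GENCODE M21 on GRCm38, which matched 42462 of 43346 identifiers. Members, lists and roles were chosen with earlier results of these data known. Every member is named; of the 88 related genes the 6 highest, the 4 lowest and any called; of each comparison list the 3 highest; and up to 10 genes whose leading transcript differed or held under 50%. Other genes are named as markers, partners or paralogs. Promoters shown needed a CHR in the 250 bases before the start, rather than in all 300 searched, so that the printed bases hold it. Protein identity between paralogs was planned and is not analysed here.

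To compare libraries, rounded expected counts were scaled with edgeR 4.0.16 (TMM factors 1.01 and 0.988). An exact binomial test, two-sided, was run on the 14768 genes whose mean reached 1 TPM, p-values were adjusted by Benjamini-Hochberg over all of them, and 0.5 was added to counts in ratios. With 1 library a side these p-values measure counting error alone, and PCR copies are not independent molecules. The procedure was tested on simulated data. Alternatives were DESeq2 1.42.0 size factors, TPM scaling, FPKM, other minimums, pseudocounts and folds, and 1 library at a time. Scripts ran in R 4.3.3 and Python 3.11.15 with scipy 1.17.1, pandas 2.3.3 and numpy 2.4.6.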

Additional observations from a re-analysis of the deposited data

How the results depend on the processing

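Directions between the libraries depended on the scaling. The median library ratio of the 40 genes was -0.046 on the TPM scale against 0.045 with TMM, 11 of the 40 ratios changed sign with DESeq2 or TPM scaling, and 17 genes higher in replicate 2 and 7 in replicate 1 became 6 and 16 on the TPM scale. The median level of the 40 genes was 14.4 in FPKM, which is another unit. With a pseudocount of 5 TPM, spindle genes exceeded duplication genes by 0.88 on the log2 scale. At any size of difference, 7 genes passed as higher in replicate 1 and 17 in replicate 2, against 0 and 0 at 2-fold. At 5 TPM 37 of the 40 genes were detected, at 10 TPM 33 and at 1 FPKM 39. Leaving out a replicate gave medians from 22.2 to 23.3 TPM. At a share of 60%, 27 genes kept 1 leading transcript, and at 40%, 36. No paired analysis was possible because there is only 1 group. Depth limits Insc most, with 61 and 99 counts, and with 2 libraries spread between animals is not measured.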

Other observations

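Multiciliated cells make many centrioles at a time through a programme of their own, which uses Plk4, Stil and Sass6 among other genes. Its defining genes were near 0: Mcidas was at 0.03 and 0.21 TPM, Gmnc at 0.01 and 0.1 TPM, Ccno at 0.1 and 0.65 TPM, Deup1 at 0.32 and 0.42 TPM and Cdc20b at 0 and 0.16 TPM. Foxj1, which also acts in cells with a single motile cilium such as those of the floor plate, was at 6.01 and 7.17 TPM, and Myb, which red cell precursors express too, at 5.08 and 3.85 TPM. So 2 of the 7 genes were detected, beside all 10 of the duplication genes above.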
